A study of Homo sapiens with 8 samples.

Results

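Chromosome 11 carries the largest set of olfactory receptor (OR) genes among the human chromosomes, and their chromatin accessibility in HepG2 cells is described here. The members were all protein-coding genes of chromosome 11 in GENCODE 44 with a symbol of the OR naming system (OR, a family number, subfamily letters and a member number). There were 178 of them, out of 416 OR genes on all chromosomes, 1317 protein-coding genes on chromosome 11 and 20033 protein-coding genes on chromosomes 1 to 22, X and Y.

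HepG2 is a human liver cancer line of hepatocyte character, labelled hepatocellular carcinoma and wild type in the sample records and listed as hepatoblastoma in the study. ATAC-seq inserts sequencing adapters into accessible DNA with the Tn5 transposase, and the bulk experiment asked how formaldehyde (FA) fixation and freezing affect such libraries. It comprised 8 libraries: cells fixed with 0.1, 0.5, 1.0 or 5.0% FA were cryopreserved or flash-frozen, with 1 library per combination. The list of accessible regions (peaks) of the library fixed with 0.1% FA and cryopreserved was analysed, and the other 7 libraries were not analysed here. All values therefore come from 1 library of 1 cell line, with no replicate and no comparison between conditions, and the 95% intervals given with shares and densities cover counting error only. Sequencing depth was not analysed here beyond the fragments at each summit, the base of highest signal in a peak. The labelled cell type was checked against markers: a peak lay at the transcription start site (TSS) of 15 of 17 hepatocyte markers (ALB and AFP lacked one), 1 of 10 markers of olfactory sensory neurons, 1 of 11 of erythroid cells, 3 of 6 of neurons and 1 of 5 of blood cells. Over all 20033 protein-coding genes the share was 61.5%. The interval lay just above that share for hepatocyte markers (63.6 to 98.5%) and below it for olfactory and erythroid markers. For neuron and blood markers the interval included it, so the check is coarse.

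Olfactory receptors are G protein-coupled receptors that bind odorants in the cilia of olfactory sensory neurons. The human genes lie in clusters on many chromosomes, usually have their coding region in a single exon, and fall into class I, which is related to the receptors of fish, and class II. In mice, each mature olfactory neuron expresses a single OR allele while the others are held in heterochromatin, and enhancers bound by LHX2, EBF and LDB1 take part in this choice.

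The sequences that carry the main observations were read from hg38 (GRCh38), and promoters were taken from the RefSeq GRCh38.p14 table, in which 133 of the 178 genes had an entry. Only 2 of the 178 genes had a peak within 1000 bp of the TSS, OR51D1 at chr11:4637026-4637137 and OR52N2 at chr11:5808552-5808655, both on the plus strand. These peaks are shown with the 2 strongest peaks inside an OR gene, in OR9Q1 (the central 201 bases, chr11:58165568-58165768) and in OR52K1 (chr11:4493358-4493508). Capitals mark the summit with the 10 bases to either side.
Peak at OR51D1: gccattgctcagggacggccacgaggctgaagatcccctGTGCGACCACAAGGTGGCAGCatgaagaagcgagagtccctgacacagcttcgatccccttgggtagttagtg
Peak at OR52N2: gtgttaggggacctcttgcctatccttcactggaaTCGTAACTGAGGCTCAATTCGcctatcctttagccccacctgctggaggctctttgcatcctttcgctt
Strongest peak in OR9Q1: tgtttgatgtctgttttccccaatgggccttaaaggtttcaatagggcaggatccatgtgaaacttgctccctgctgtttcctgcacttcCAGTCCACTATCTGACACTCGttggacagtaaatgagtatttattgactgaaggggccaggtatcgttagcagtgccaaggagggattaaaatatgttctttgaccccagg
Peak in OR52K1: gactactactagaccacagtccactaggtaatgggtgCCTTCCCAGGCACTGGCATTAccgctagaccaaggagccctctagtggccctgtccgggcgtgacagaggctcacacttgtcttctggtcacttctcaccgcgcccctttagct

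The 250 bases before the RefSeq start are shown next for OR4C12, one of the OR genes farthest from any peak, and for OR52N2, whose peak ended just upstream of them. TRIM5 and OSBP are non-OR genes inside OR clusters, with the 2 highest fold enrichments at the TSS of a protein-coding gene there. The coordinates are chr11:49982536-49982785 (minus strand) for OR4C12, chr11:5808674-5808923 (plus) for OR52N2, chr11:5685075-5685324 (minus) for TRIM5 and chr11:59615775-59616024 (minus) for OSBP. Each is written along the strand of its gene, and capitals mark CG dinucleotides, of which there were 1, 9, 5 and 18 in that order.
Promoter of OR4C12: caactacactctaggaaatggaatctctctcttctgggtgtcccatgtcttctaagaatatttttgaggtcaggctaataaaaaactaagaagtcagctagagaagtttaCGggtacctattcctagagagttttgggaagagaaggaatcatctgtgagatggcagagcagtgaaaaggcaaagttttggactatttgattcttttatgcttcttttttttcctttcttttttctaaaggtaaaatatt
Promoter of OR52N2: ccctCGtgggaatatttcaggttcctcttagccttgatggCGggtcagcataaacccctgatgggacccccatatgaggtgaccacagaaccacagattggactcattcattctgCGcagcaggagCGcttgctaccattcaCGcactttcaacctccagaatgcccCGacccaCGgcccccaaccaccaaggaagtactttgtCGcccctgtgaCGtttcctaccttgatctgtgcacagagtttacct
Promoter of TRIM5: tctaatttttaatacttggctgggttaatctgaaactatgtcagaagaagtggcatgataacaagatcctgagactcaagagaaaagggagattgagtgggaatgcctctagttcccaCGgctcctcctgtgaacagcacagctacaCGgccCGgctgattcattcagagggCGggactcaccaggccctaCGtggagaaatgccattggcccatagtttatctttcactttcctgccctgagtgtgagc
Promoter of OSBP: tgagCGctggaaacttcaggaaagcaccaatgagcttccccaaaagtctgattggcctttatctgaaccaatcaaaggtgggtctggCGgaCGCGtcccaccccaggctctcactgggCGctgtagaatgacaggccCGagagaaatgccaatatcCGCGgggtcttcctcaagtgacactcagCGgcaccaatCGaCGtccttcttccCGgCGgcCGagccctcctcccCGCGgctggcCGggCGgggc
Over the 133 OR promoters, the 250 bases had a median GC content of 36.4% and a median of 1 CG, and 36.1% held none. Over the 15036 promoters of other genes in the table, the median GC content was 62.8%, the median number of CG was 18, and 2.55% held none.

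Almost no OR gene of chromosome 11 had a peak at its start. A TSS peak (a peak that overlaps the canonical TSS extended by 1000 bp each way) was found at 2 of 178 OR genes (1.12%, interval 0.136 to 4.00%), against 707 of 1139 other protein-coding genes of the chromosome (62.1%, 59.2 to 64.9%). Over all 1317 protein-coding genes of chromosome 11 the share was 53.8%, so leaving out the OR genes raised it by 8.24 percentage points. OR genes made up 13.5% of these genes. With the window widened to 2500 bp each way, the OR share was 3.93%, against 66.5% of the other genes. Counting peaks anywhere in the annotated gene body as well, 7 of 178 OR genes had a peak (3.93%, 1.60 to 7.93%), against 880 of 1139 other genes (77.3%, 74.7 to 79.7%) and 67.3% of all 1317. The median annotated length was 1.09 kb for OR genes and 21.6 kb for the others, and the part of length in the second difference was not tested.

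The few OR genes with a peak were mostly class I. TSS peaks were found at 2 of 57 class I genes (3.51%, 0.428 to 12.1%) and at 0 of 121 class II genes, which allows a share of up to 2.48%. Peaks in the body or at the TSS were found at 5 of 57 class I genes (8.77%, 2.91 to 19.3%) and 2 of 121 class II genes (1.65%, 0.201 to 5.84%). These intervals overlap, and no test of the difference between the classes was made. All 57 class I genes lie in 1 cluster without class II genes, so class and locus cannot be told apart. The median GC content within 500 bp of the TSS was 41.1% for class I and 38.4% for class II, and its part was not tested. In the annotation, 84 OR genes begin at the start codon, so their true TSS may lie elsewhere. Of these, 0 had a TSS peak (up to 3.57% allowed), against 2 of the 94 with an annotated 5′ UTR (2.13%, 0.259 to 7.48%), so no difference was detectable.

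OR51D1 (ENSG00000197428.3) is a class I receptor gene that spans 4637477 to 4643060 on the plus strand. Its peak was 112 bp wide with the summit 402 bp upstream of the TSS, a fold enrichment of 9.36 over background and a -log10 q of 13.2. About 10 fragments covered the summit, as solved from the fold and -log10 p, so fold and fragments are not independent values. The background solved with them, 0.176 fragments, was the same at the peaks of OR51G2 and OR51B5, so it was not particular to this locus. OR52N2 (ENSG00000180988.3), also class I, spans 5808924 to 5821483 on the plus strand. Its peak was 104 bp wide with the summit 327 bp upstream of the TSS, a fold of 5.95, a -log10 q of 6.51 and about 6 fragments, so it was the weaker of the pair. It also lies inside the annotated span of TRIM5, which runs to 5938619 through long transcripts, and the library does not show which gene it belongs to. For scale, the median peak of chromosome 11 had a fold of 10.7 and 18 fragments.

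In 5 further OR genes the peaks lay in the annotated body, away from the TSS window. OR52K1 had a peak near its 3′ end, 10.8 kb downstream of the TSS, with a fold of 15.4, a -log10 q of 26.2 and about 18 fragments. OR51G2 had one 2.56 kb downstream of its TSS (fold 8.51), which also lies in the span of MMP26, a matrix metalloproteinase gene. The peak counted for OR51B5 (fold 8.51) lay 37.4 kb upstream of the canonical TSS, within a span of 202 kb given by long transcripts. The annotated spans of HBG2 and HBE1 also cover this peak, but the canonical TSSs of both genes lie outside the OR51B5 span. The OR TSS nearest to the peak was that of OR51M1, at 2.88 kb. OR6A2, a class II gene, had a peak 4.86 kb downstream of its TSS (fold 10.2).

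OR9Q1 was the OR gene with the most peaks. Its annotated span of 158 kb held 5 of the 11 peaks that overlapped an OR gene or its TSS window, with folds of 7.38, 7.87, 9.35, 6.50 and 17.7. The last, 142 kb downstream of the TSS, was the strongest peak in any OR gene of chromosome 11, with a -log10 q of 33.6 and about 28 fragments. The coding exon of an OR gene is short, so most of such a long span is intron or untranslated sequence, and the span also covers other OR genes and non-coding genes. Of the 11 peaks, those in OR9Q1 and OR52K1 were the 2 with a -log10 q of at least 20.

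The OR genes fell into 11 clusters, defined as runs with at most 200 kb between neighbouring genes, and 7 clusters of at least 5 genes held 167 of the 178. Together the clusters spanned 5.92 Mb (4.40% of the sequenced bases of the chromosome) and held 36 of its 2962 peaks (1.22%). Peak density was 6.08 per Mb in OR clusters (4.26 to 8.41), against 22.8 per Mb in the rest of chromosome 11 (21.9 to 23.6), a ratio of 0.267 (0.187 to 0.371). At the density of the rest, the clusters would have held 134.8 peaks. With the flanks of all clusters pooled, the low density was not seen beyond the edges. It was 24.9 per Mb in the 200 kb to either side (20.4 to 30.1), 27.0 per Mb from 200 to 500 kb and 22.0 per Mb from 500 to 1000 kb. The ratio of clusters to the pooled 200 kb flanks was 0.244 (0.163 to 0.359). Single clusters differed from this. No summit lay within 200 kb on either side of the clusters from OR4C13 to OR4C45, OR4C46 to OR4A5 and OR4A16 to OR5AK2. The same held beyond the OR4A47 end of the cluster from OR4B1. For peaks that did not lie at the TSS of a protein-coding gene, OR clusters held 29, or 4.89 per Mb, against 16.8 per Mb in the rest, a ratio of 0.291 (0.195 to 0.419).

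**Figure D1:**
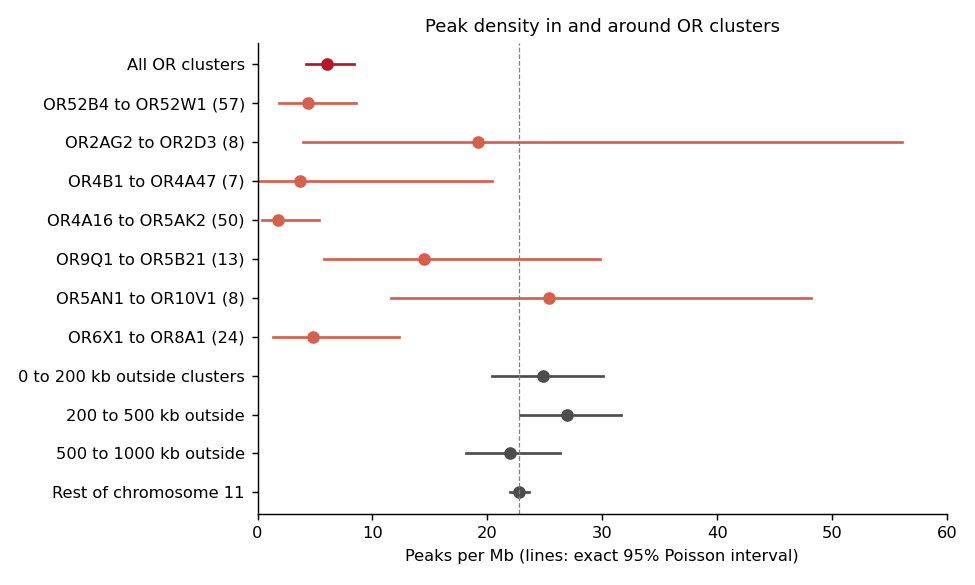
Peaks per Mb (x axis) in all OR clusters, in the 7 clusters of at least 5 genes (number of OR genes in brackets), in flanking sequence by distance and in the rest of chromosome 11; points are densities, lines exact 95% Poisson intervals, and the dashed line marks the rest of the chromosome. All clusters together lie at 6.08 per Mb against 22.8 in the rest, while the cluster from OR5AN1 to OR10V1 lies at 25.4.

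Clusters differed widely among themselves. The largest, from OR52B4 to OR52W1 (chr11:4367263-6200186), held all 57 class I genes and 8 peaks, 4.36 per Mb (1.88 to 8.60). The cluster from OR4A16 to OR5AK2 (chr11:55343201-56989843) held 50 class II genes in 1647 kb and only 3 peaks, 1.82 per Mb (0.376 to 5.32), with folds of 5.95, 5.95 and 8.49. These 2 clusters hold most of the OR genes of the chromosome.

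**Figure D2:**
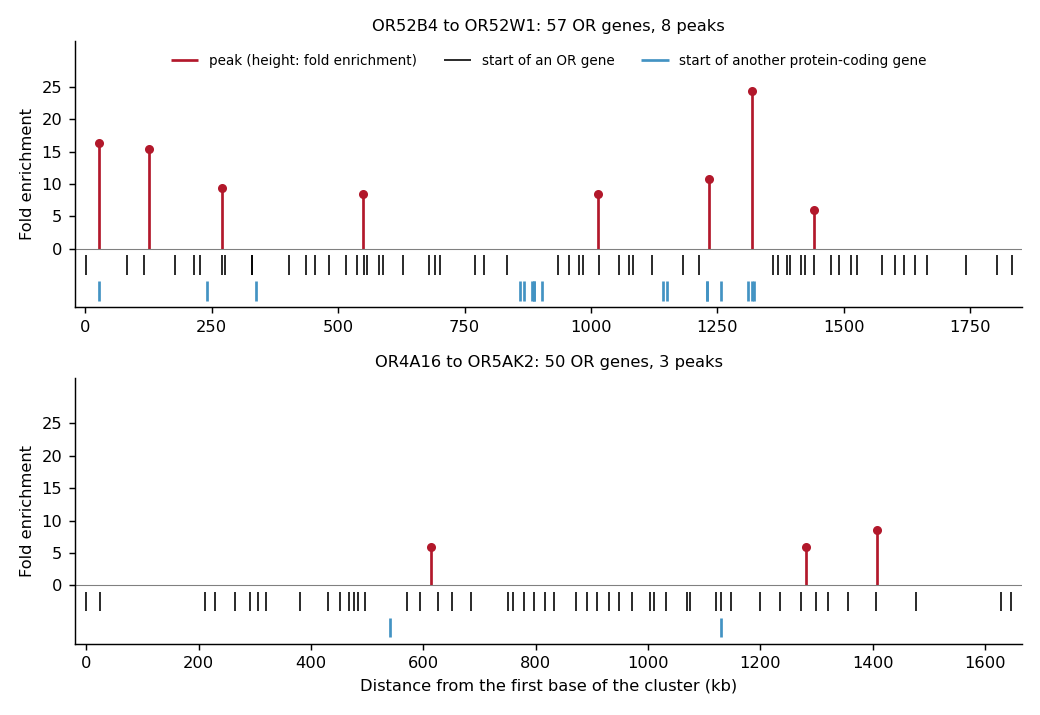
Maps of the 2 largest OR clusters by distance from the first base of the cluster (x axis, kb); red stems are peaks at their fold enrichment (y axis), black ticks the starts of OR genes and blue ticks the starts of other protein-coding genes. The upper cluster has 57 OR genes and 8 peaks, the strongest (fold 24.4) at the start of TRIM5; the lower has 50 OR genes and 3 peaks.

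The cluster from OR6X1 to OR8A1 near the end of the long arm held 24 genes and 4 peaks, 4.82 per Mb (1.31 to 12.3), and that from OR4B1 to OR4A47 held 7 genes and 1 peak, 3.66 per Mb (0.0928 to 20.4). Densities were higher from OR2AG2 to OR2D3, with 8 genes and 3 peaks (19.2 per Mb, 3.96 to 56.1), from OR9Q1 to OR5B21, with 13 genes and 7 peaks (14.5 per Mb, 5.81 to 29.8), and from OR5AN1 to OR10V1, with 8 genes and 9 peaks (25.4 per Mb, 11.6 to 48.1). The intervals of these last 3 clusters included the density of the rest of the chromosome. The cluster from OR5AN1 to OR10V1 also held the starts of OSBP and PATL1, and without it the density of the remaining clusters was 4.85 per Mb. The small cluster from OR5P2 to OR10A3 held 1 peak (6.86 per Mb, 0.174 to 38.2). No peak lay in the clusters from OR4C13 to OR4C45 and from OR4C46 to OR4A5, with 3 genes each, or at the single gene OR2AT4, and at their lengths a count of 0 allows densities of up to 36.9, 28.6 and 198 per Mb.

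The medians of peak strength were somewhat lower inside OR clusters than in the rest of the chromosome, and the difference was not tested. The median fold was 9.94 over the 36 cluster peaks (quartiles 7.75 and 15.7), against 10.7 over the other 2926 (7.66 and 15.7), and the median number of summit fragments was 12.5 against 18. Their median width was 151 bp against 175 bp. With peaks at protein-coding TSSs left out of both, the medians were 9.36 against 9.91 for fold and 12 against 15 for fragments. The distributions overlapped, and 17 of the 36 lay above the median fold of the chromosome. Of the 36 peaks, 11 overlapped an OR gene or its TSS window, 7 lay at the TSS of a protein-coding gene, 11 had the summit within 10 kb of an OR TSS, and 9 lay in no annotated gene and at no annotated TSS, and these groups overlap.

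The distance from an OR gene to the nearest summit was long. It had a median of 63.5 kb for OR genes (quartiles 33.4 and 152 kb, range 0.327 to 1725 kb), against 0.191 kb for the other protein-coding genes (quartiles 0.069 and 7.27 kb). No summit lay within 100 kb of the TSS of 63 OR genes (35.4%), against 38 other genes (3.34%). The 5 OR genes farthest from a summit were OR4C45 (1725 kb), OR4C12 (1675 kb) and OR4C13 (1644 kb), which lie near the centromere, and OR4A16 (614 kb) and OR4A15 (589 kb) on the long arm.

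**Figure D3:**
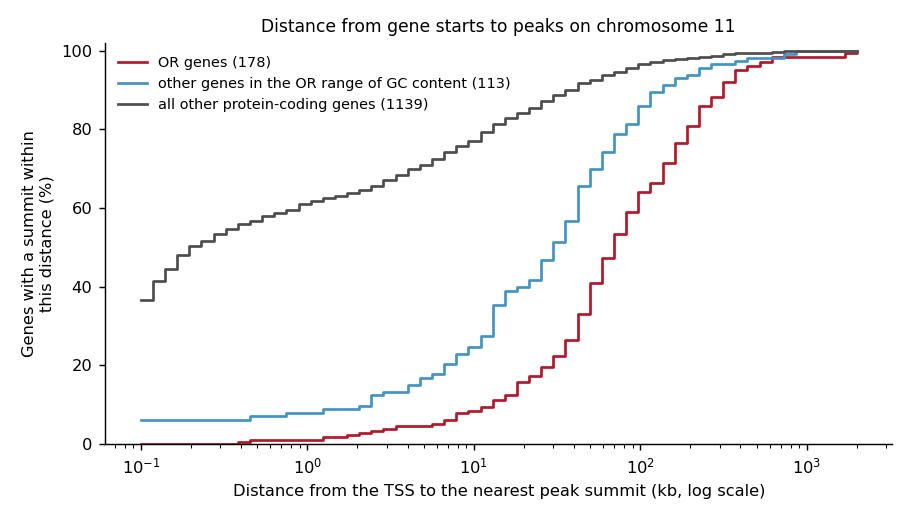
Share of genes (y axis, %) with a peak summit within a given distance of the TSS (x axis, kb, log scale) for OR genes, other genes of chromosome 11 in the OR range of GC content and all other protein-coding genes of the chromosome. The curve of the OR genes is the lowest at 50 kb, with 41.0% of OR genes, 69.9% of the GC-poor genes and 92.6% of all other genes within that distance.

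The 2 longest stretches of chromosome 11 between neighbouring summits held OR genes. The first, from 48307959 to 53354104 (5.05 Mb), spans the centromere and held 6 OR genes, but only 43.0% of its 50-mers (sequences of 50 bases) occur once in hg38. The next, from 54236373 to 55956741 (1.72 Mb, 77.3% of 50-mers found once), held 20 OR genes. Another, from 55956741 to 56624768 (0.668 Mb), held 26 OR genes at 93.6% of 50-mers found once, and a stretch of 0.464 Mb in the class I cluster, from 4916794 to 5380935, held 15 OR genes and the globin genes. Long gaps also occurred without OR genes: of 31 stretches over 0.5 Mb, 3 held any.

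Low uniqueness of sequence, which would remove reads, was measured because OR genes are a family of similar genes. Within 1000 bp of the TSS, the median share of 50-mers found once in hg38 was 100% for OR genes (lowest 67.3%), and also 100% for the other genes (lowest 1.03%). The 10th percentile was 87.8% for OR genes and 92.9% for the other genes. Pooled over all sequence, the share was 91.6% in the clusters, against 91.1% in the rest of the chromosome. By windows of 100 kb, the median was lower in OR cluster windows (92.8%) than in windows with no OR cluster (95.1%). Per Mb of 50-mers found once, an alternative added after the data were seen, the ratio of peak densities was 0.266 (0.186 to 0.369). At 32 of the 36 cluster peaks every 50-mer sampled around the summit was found once, and the peak in OR52K1 was among the 4 exceptions (71.4%).

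The base composition around OR genes differed strongly from that of other genes, and it moved together with accessibility. Within 500 bp of the TSS, GC content had a median of 39.4% for OR genes (10th to 90th percentile 34.3 to 46.0%), against 61.7% for the others. The observed number of CpG over that expected from the base composition had a median of 0.153, against 0.708. Among genes in the 10th to 90th percentile of the OR genes, 0 of 142 OR genes had a TSS peak (up to 2.11% allowed), against 10 of 113 others (8.85%, 4.33 to 15.7%). The share of other genes in this range was thus far below the 62.1% of all other genes, and its interval still lay above the limit for OR genes. The range did not make GC content equal. Its median was 41.3% for these 113 genes (quartiles 39.2 and 43.7%), against 39.4% for all 178 OR genes (36.5 and 42.2%). The part of this remaining difference was not tested.

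Both OR genes with a TSS peak were among the 6 with a GC content of 50% or more, a split chosen after seeing the data. The other 4 were OR51E1, known from prostate tissue and prostate cancer, OR52B6, OR52W1 and OR10Q1, named here for this reason and not by the rule for named genes. The share was 2 of 6 among OR genes of 50 to 55% GC (33.3%, 4.33 to 77.7%), against 57 of 111 other genes (51.4%, 41.7 to 61.0%), so the intervals overlap widely. Below 50% GC, it was 0 of 172 OR genes (up to 1.74% allowed), against 22 of 177 other genes (12.4%, 7.96 to 18.2%). GC content was not equal within this range. From 45 to 50% GC, it was 0 of 22 OR genes (exact interval up to 15.4%), against 15 of 65 other genes (23.1%, 13.5 to 35.2%). From 35 to 40% GC, it was 0 of 73 (up to 4.93%), against 3 of 33 (9.09%, 1.92 to 24.3%). In each bin below 50% GC the intervals of OR genes and other genes overlapped. The nearest summit lay 6.91 kb from the TSS of OR51E1, and it is the summit of the OR51D1 peak.

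**Figure D4:**
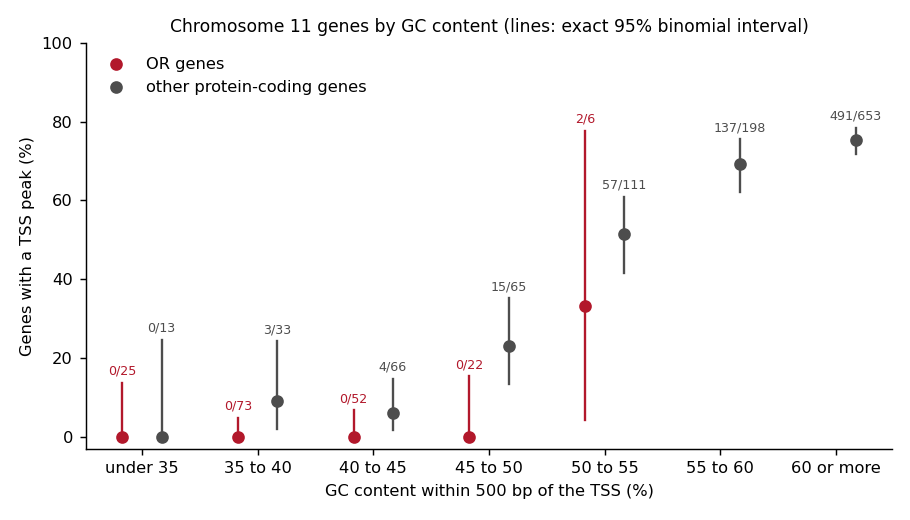
Share of genes with a TSS peak (y axis, %) by GC content within 500 bp of the TSS (x axis) for OR genes and other protein-coding genes of chromosome 11; points are shares with the counts printed above, lines exact 95% binomial intervals. Shares of other genes are 0 of 13 below 35% GC and 491 of 653 at 60% or more, and no OR gene reaches 55%.

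Peak density was also compared over windows of 100 kb, an alternative added after the data were seen. Windows at least 50% inside an OR cluster numbered 57 and had 5.79 peaks per Mb, against 23.0 in the 1259 windows with no cluster, and 35 of them (61.4%) held no peak, against 36.8%. Among windows outside clusters with a GC content in the 10th to 90th percentile of the OR windows, the density was 10.5 per Mb over 563 windows, and the ratio was 0.552 (0.377 to 0.785). The OR windows were not trimmed to that range here or below. Their GC content ran from 34.3 to 43.4% (median 37.7%), against 35.5 to 40.8% (median 38.1%) in the windows of like GC content. With windows that held the TSS of a non-OR protein-coding gene left out on both sides, the density was 5.32 per Mb in 47 OR windows (3.44 to 7.85), against 5.75 in 405 other windows (5.04 to 6.54), a ratio of 0.925 (0.586 to 1.40). With other windows also limited to those at least as unique as the least unique OR window, it was 0.870 (0.551 to 1.32) over 376 windows. So OR clusters had fewer peaks than the chromosome as a whole and than windows of like GC content, but no difference was detectable from GC-poor windows without other gene starts, and a density 0.551 to 1.32 times theirs is within counting error.

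**Figure D5:**
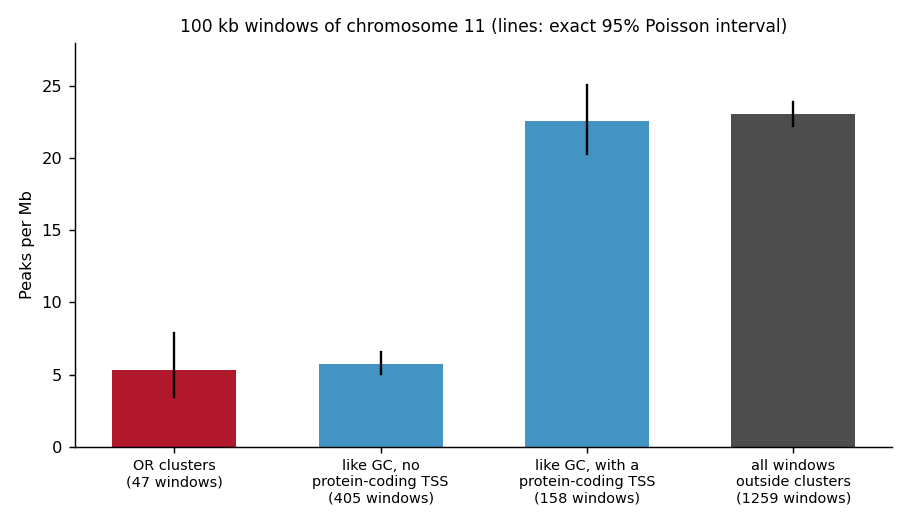
Peaks per Mb (y axis) in 100 kb windows of chromosome 11 inside OR clusters with no other protein-coding TSS, in windows of like GC content without and with such a TSS, and in all windows outside clusters; bars are densities and lines exact 95% Poisson intervals. The first pair lies at 5.32 and 5.75 per Mb, the other bars at 22.6 and 23.0.

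The share of other protein-coding genes inside OR clusters with a TSS peak lay between those of the OR genes and of the rest of the chromosome, and its interval overlapped neither. A TSS peak was found at 5 of 23 such genes (21.7%, 7.46 to 43.7%), against 1.12% of the OR genes and 62.1% of all 1139 other protein-coding genes of chromosome 11 (59.2 to 64.9%), which include these 23. TRIM5, an antiviral restriction factor, had the highest fold of these at 24.4, followed by OSBP, which encodes oxysterol-binding protein (18.1), and PATL1, an mRNA decapping factor (17.5). TRIM21, which encodes a cytosolic antibody receptor, had a fold of 16.4, and VWA5A one of 11.1. The GC content within 500 bp of the TSS was 64.9% for OSBP and 66.4% for PATL1, but 47.0% for TRIM5 and 45.5% for VWA5A, so both of these had a TSS peak at a GC content below 50%. The summit of the TRIM5 peak lay 41.4 kb from the TSS of the nearest OR gene, OR52P1.

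Of the 8 TRIM genes inside clusters, 2 had a TSS peak (25.0%, 3.19 to 65.1%), TRIM5 and TRIM21. The 5 beta-like globin genes, which encode subunits of hemoglobin and are active in erythroid cells, lie among class I OR genes, and 0 of the 5 had a TSS peak. The TSS of each globin gene lay far from any summit, at 154 kb for HBB, 146 kb for HBD, 131 kb for HBG1, 126 kb for HBG2 and 111 kb for HBE1. The nearest summit was the same for all 5, so these distances are not independent values. Such distances are beyond the median of the class I OR genes, which was 54.4 kb.

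Genes of olfactory signal transduction and OR choice were examined as a list of 28. A TSS peak was found at 8 (28.6%, 13.2 to 48.7%), against 61.5% of all 20033 protein-coding genes. The 8 were the chromatin regulators BPTF (fold 25.2) and KDM1A (22.9), a histone demethylase, RIC8B (18.3), a chaperone of G protein alpha subunits, the stress factor ATF5 (14.4), the G protein subunit GNB1 (10.6), the LIM-domain binding protein LDB1 (7.97), GNAL (7.66), which encodes the olfactory G protein alpha subunit, and EBF4 (6.44), an EBF-family transcription factor. The members on chromosome 11 were the channel subunit CNGA4, the olfactory marker protein OMP, the adhesion molecule NCAM1 and the teneurin TENM4, and none of these 4 had a TSS peak.

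Motifs were searched on both strands, and a match is a description of letters and not a binding site. Within 50 bp of the summit, the 36 cluster peaks held a CTCF motif in 2 (5.56%), against 6.80% of the 2162 other peaks of chromosome 11 away from a protein-coding TSS, and the CEBP motif TTGCNNAA in 5 (13.9%), against 7.22%. The CTCF match of OR52K1 lies downstream of the capitals in the sequence shown. A looser CTCF pattern, chosen after the letters of the OR51D1 peak were seen, matched 3 of the 36 (8.33%), against 11.7% of the others, and the peaks at OR51D1 and OR52K1 were among them. The FOXA motif TGTTTAC matched 2 (5.56%), against 5.46%, the AP-1 motif TGANTCA 1 (2.78%), against 6.48%, and the HNF4 motif CAAAGTCCA 1 (2.78%), against 1.76%. The EBF motif CCCNNGGGA matched 0 of the 36 and the LHX2-type homeodomain motif TAATTG 2 (5.56%), against 2.64% and 1.39%. With counts of 0 to 5 these shares carry little weight.

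In the promoters (250 bases before to 50 after the RefSeq start), the motifs rich in A and T were more frequent at OR genes. TATAAA was found in 35.3% of the 133 OR promoters, against 9.10% of the 15036 others, and TAATTG in 22.6%, against 5.45%. CCCNNGGGA was found in 4.51%, against 10.1%. TTGCNNAA was found in 15.0%, against 8.25%, and TGANTCA in 11.3%, against 5.63%. GC content differs between these sets of promoters, as given above, and its part in these shares was not tested.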

How the data were processed

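Per the methods, the authors trimmed the reads with cutadapt, aligned them to GRCh38 (Bowtie2), discarded PCR duplicates and called peaks of the 0.1% FA cryopreserved library with MACS2, whose version was not given in the sources used here. The sample records also name bcl2fastq and deepTools 3.5.5. The deposited list holds, per peak, a score, a fold enrichment, -log10 p, -log10 q and the summit position. Fold enrichment was read as summit signal over background, with a constant added to each under the formulas assumed for MACS2. Deposited peak names point to an alignment of short fragments, possibly a subset of the library. A shift of read ends to the Tn5 cut site, not stated, would move edges slightly.

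Peaks were placed on GENCODE 44 genes. Shares carry Clopper-Pearson, densities Poisson and ratios exact conditional intervals at 95%, and a count of 0 allows up to 3 counts. Uniqueness was taken from 50-mers sampled every 20 bp over hg38. Summit fragments were solved from the fold and -log10 p with formulas assumed for MACS2, an analysis added after the data were seen, and were whole within 0.01 for 99.6% of the peaks of chromosome 11. Overlaps, clusters, fragment solutions and 50-mer counts were tested on simulated data. The versions were numpy 2.4.6, scipy 1.17.1, pandas 2.3.3, matplotlib 3.10.9 and Python 3.11.15. The OR genes, lists, windows and motifs were chosen with earlier results of these data known. Named by rule were OR genes with a peak, the 5 farthest from a summit, cluster ends, non-OR genes with a TSS peak in clusters, the globin genes, list members with a TSS peak or on chromosome 11, and OR genes elsewhere with a TSS peak. OR pseudogenes, OR genes elsewhere with a peak in the body alone and nearest genes were named after their values were seen. Alternatives were other TSS windows, transcripts, -log10 q limits, cluster gaps, lengths and regions of comparison.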

Additional observations from a re-analysis of the deposited data

How the results depend on the processing

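Of 60 recomputed values, 48 stayed within their counting interval, 12 moved and 0 turned direction. With a -log10 q of at least 20, which keeps strong peaks, TSS peaks were found at 0.0% of OR genes and 50.7% of the other genes of chromosome 11, body or TSS peaks at 1.12% of OR genes, the density in OR clusters was 2.53 per Mb and the median distance to a summit was 234 kb. Inside their wide intervals, GC-poor genes were then at 4.42% and the olfactory list at 14.3%. With a window of 2500 bp the OR share was 3.93%, against 1.12% with 1000 bp. The share of other genes with a TSS peak was 58.6% with a window of 500 bp, 66.5% with 2500 bp and 67.7% with the start of any transcript, a choice that also moved GC-poor genes to 21.2%. The ratio of OR clusters to the rest of the chromosome moved to 0.552 in windows of like GC content, to 0.925 where windows with other protein-coding starts were left out and to 0.870 with like uniqueness too. Under the other alternatives it ranged from 0.208 to 0.291. A gap of 500 kb gave the same clusters as 200 kb. No paired analysis was possible because 1 library was analysed and the result comes from no test. Depth limits the weakest peaks, such as that of OR52N2 with about 6 fragments, and accessibility in a small share of the cells would not be detectable in a bulk library.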

Other observations

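The OR genes of other chromosomes had a TSS peak at 3 of 238 (1.26%, interval 0.261 to 3.64%), a share close to that of chromosome 11, against 62.8% of the 18478 other protein-coding genes there. The 3 were OR2F2 on chromosome 7 (fold 8.49, summit 171 bp from the TSS), OR6J1 on chromosome 14 (8.79, 232 bp) and OR1F1 on chromosome 16 (5.85, 171 bp). Peaks in the body alone were found at OR2F1 (10.6) and OR2A14 (15.6), both on chromosome 7, and OR10H5 (7.66) on chromosome 19. In all, 6 of the 238 had a peak in the body or at the TSS (2.52%, 0.931 to 5.41%), against 3.93% on chromosome 11. Of these, 3 were among the 17 OR genes of chromosome 7, and differences between chromosomes were not tested.

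Genes annotated as OR pseudogenes, which no longer encode a receptor, numbered 194 on chromosome 11, and 2 had a TSS peak (1.03%, 0.125 to 3.67%). Some of the 178 OR genes also have a pseudogene symbol ending in P but are annotated as protein-coding, and they were kept as such. Among them is OR51C1P, whose TSS is also that of OR51E2, so this start was counted for both genes. The peak at OR8B6P had a fold of 15.8, above that of both protein-coding OR genes with a TSS peak on the chromosome, and that at OR10AK1P one of 5.95. Both lie inside OR clusters.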
